A study of Mus musculus with 3 samples.

Results

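PAM ChIRP-seq of activated satellite cells (ASCs) was examined at 8 genes of intermediate filaments: Vim, Des and Gfap, which encode filament proteins of type III, Nes and Synm, which encode large partners that co-assemble with them, and the lamin genes Lmna, Lmnb1 and Lmnb2. A region was assigned to a gene when it overlapped the span of that gene in GENCODE M1, the annotation of mouse build mm9, by at least 1 bp. By this rule 13 of the 2457 regions of both probe pools lay in the 8 genes, 8 of 2112 in the odd pool and 5 of 345 in the even pool. All 13 were in Vim, Des and Lmna, each of which had regions in both pools, and the other 5 genes had none in either pool.

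ChIRP-seq hybridizes biotinylated antisense probes to an RNA and sequences the DNA that is recovered with it, here PAM, a long noncoding RNA transcribed from a super-enhancer and annotated as Gm12603 on chromosome 4, to ask which chromatin the RNA associates with. Satellite cells, the stem cells of skeletal muscle, were sorted from hindlimb muscle of Tg:Pax7-nGFP mice, which carry a nuclear GFP driven by Pax7, and were cultured in Ham's F10 medium with horse serum and FGF-Basic without further treatment. Cells were crosslinked with 1% glutaraldehyde and the lysate was hybridized with an odd or an even pool of PAM probes. Each pool was 1 library, and the input library was not analysed here, so that replicate error could not be estimated and no test between pools was possible. The age of the mice, the number of animals, the time in culture and the assignment of single probes to a pool were not given in the sources used here. The deposited lists hold no read counts, so their depth is unknown, and they hold no expression values, so that the identity of the cells could not be checked against marker genes. All regions of the odd pool were 254 bp wide and those of the even pool 248 bp. Each carried a score, a whole number whose meaning was not given in the sources used here, from 4 to 81 in the odd pool (median 6) and from 4 to 68 in the even pool (median 5). Scores were therefore ranked only within their own list.

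Intermediate filament proteins share a central coiled-coil rod, pair through it and assemble into flexible filaments without polarity. Vimentin, the product of Vim, is the main cytoplasmic filament of mesenchymal and proliferating myogenic cells, while desmin, the product of Des, is the muscle filament that links myofibrils at the Z-disc. Nestin and synemin depend on vimentin or desmin to form filaments, GFAP is the filament of astrocytes, and the lamins form the meshwork under the inner nuclear membrane. In the genes of type III the first exon encodes the head and the start of the rod, and exon 6 encodes the end of the rod, a stretch that is much alike in all intermediate filament proteins.

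Vim (ENSMUSG00000026728.3, chr2:13495554-13504453, plus strand) held 4 regions in the odd pool and 2 in the even pool. Across the genome, 6.46% of the 22380 protein-coding genes had at least 1 region in the odd pool, 0.996% had at least 1 in the even pool, and 0.469% had at least 1 shared locus, a stretch covered by a region of each pool. Vim, Des and Lmna were thus 3 of 8 members in each of these counts. The members were chosen with earlier results of these data known, and the counts were not tested against these backgrounds.

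The highest score in Vim was on exon 1, inside the coding sequence. The odd region at chr2:13496289-13496542 had a score of 53, and 11 of the 2112 odd regions scored higher. The even region at chr2:13496205-13496452 had a score of 10, and 41 of the 345 even regions scored higher. These regions shared 164 bp, from 13496289 to 13496452. Both lay wholly in coding exon: the odd region covered codons 77 to 162 and the even region codons 49 to 132, of 467 codons with the stop.

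The next odd regions in Vim were each centred on 1 short internal exon. The region at chr2:13500176-13500429 had a score of 26, with 51 odd regions scoring higher, and contained the whole of exon 4, which is 162 bp long. It ran 40 bp into the intron before the exon and 52 bp into the intron after it. The region at chr2:13501620-13501873 had a score of 31, with 35 odd regions scoring higher, and contained the whole of exon 6, which is 221 bp long, with 25 bp of the intron before it and 8 bp of the intron after it. Neither overlapped an even region, the nearest of which lay 3678 bp from the region on exon 4 and 2234 bp from that on exon 6. The sequence of the region on exon 4 (mm9, plus strand) is shown because it crosses both exon borders into the introns, with exon bases in capitals and intron bases in lower case.
Vim exon 4, odd pool: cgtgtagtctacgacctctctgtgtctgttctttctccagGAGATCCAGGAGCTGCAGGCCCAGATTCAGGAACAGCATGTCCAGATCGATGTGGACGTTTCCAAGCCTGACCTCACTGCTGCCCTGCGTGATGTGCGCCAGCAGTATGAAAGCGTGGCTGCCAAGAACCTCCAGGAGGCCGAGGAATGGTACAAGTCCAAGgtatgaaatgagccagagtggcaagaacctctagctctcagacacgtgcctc

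Both pools met again on exon 9, the last exon of Vim. The odd region at chr2:13504070-13504323 had a score of 28, with 42 odd regions scoring higher, and held 42 coding bases, 182 bases of the 3′ untranslated region (3′UTR) and 30 bases of the intron before the exon. The even region at chr2:13504108-13504355 had a score of 7, with 73 even regions scoring higher, and held 34 coding bases and 214 bases of the 3′UTR. They shared 216 bp, and their midpoints were 35 bp apart, against 87 bp for the pair on exon 1. The regions of Vim therefore lay on 4 of its 9 exons in the odd pool and on 2 of those 4 in the even pool. In both pools, the region on exon 1 had a higher score than that on exon 9. The regions of both pools together covered 44.6% of the 2193 bases of the spliced transcript (39.3% by the odd pool and 22.6% by the even pool) and 2.31% of its 6707 intron bases. Of the coding sequence they covered 54.5%.

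**Figure D1:**
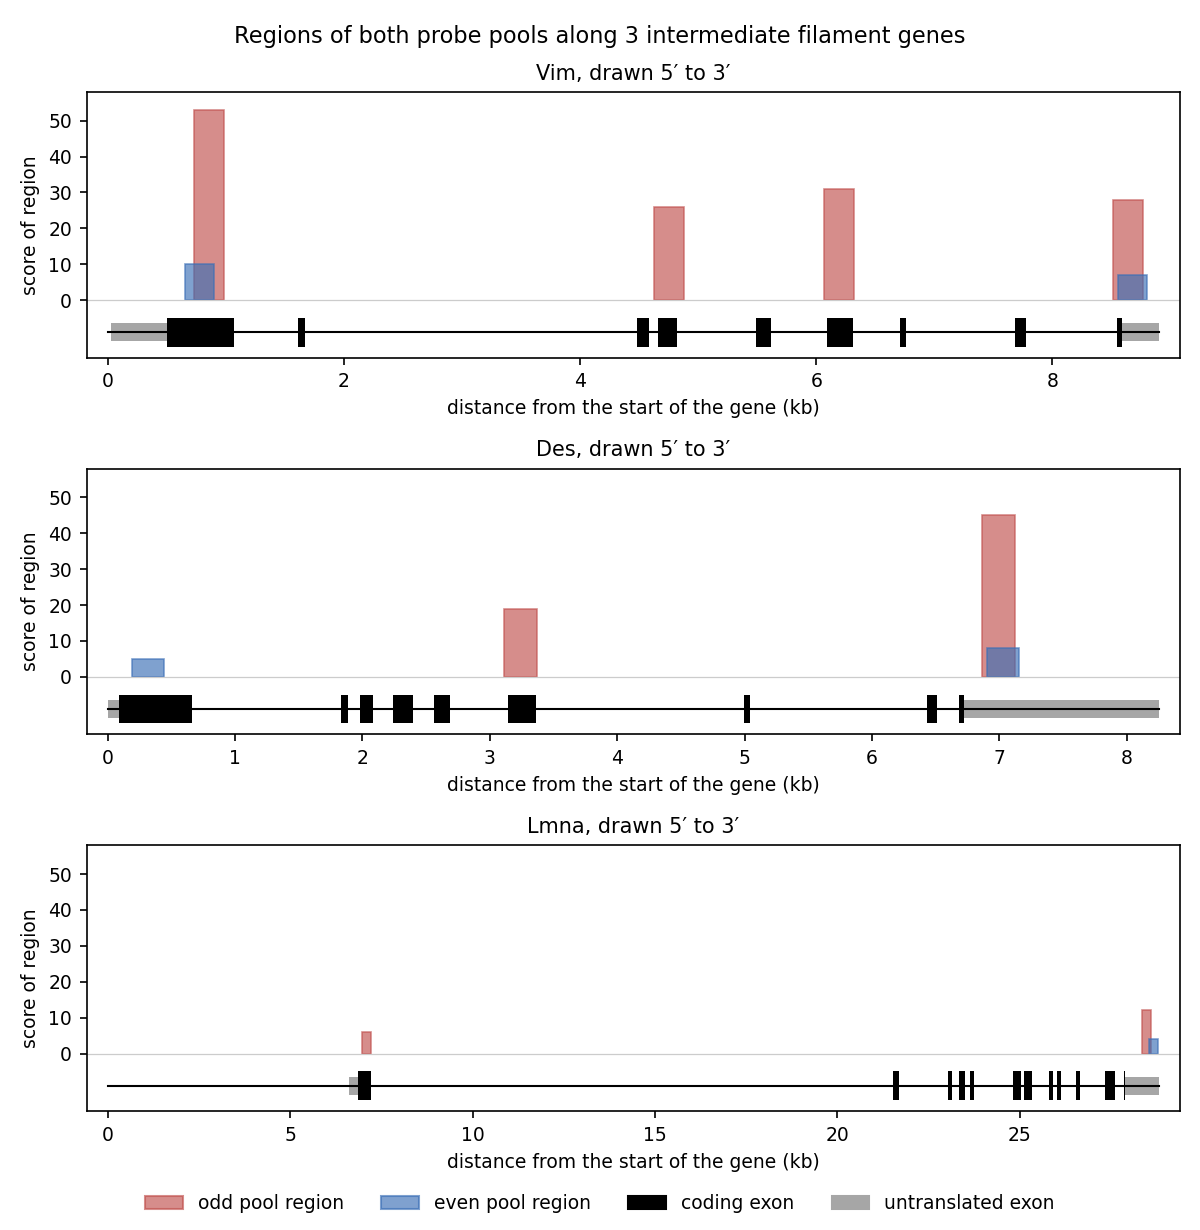
Regions of the odd pool (red) and the even pool (blue) along Vim, Des and Lmna, as boxes whose height is the score of the region (linear axis from 0) over the distance from the start of the gene in kb, with coding exons as tall black boxes and untranslated exon parts as grey boxes. In all 3 genes a blue box overlaps a red one on the last exon, and in Vim a further pair overlaps on exon 1, where the odd score was 53 and the even score 10. Both pools are drawn on the same axis, but their scores may be on different scales, so red and blue heights cannot be compared.

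Des (ENSMUSG00000026208.9, chr1:75356904-75365154, plus strand) held 2 regions in each pool, 1 pair of which overlapped. On exon 9, the last exon, the odd region at chr1:75363770-75364023 had a score of 45, with 18 odd regions scoring higher. The even region at chr1:75363809-75364056 on the same exon had a score of 8, with 58 even regions scoring higher. Both lay wholly in the 3′UTR and shared 215 bp, with midpoints 36 bp apart. The other 2 regions of Des were each found in 1 pool. The odd region at chr1:75360019-75360272 had a score of 19, with 100 odd regions scoring higher, and contained the whole of exon 6 with 27 bp of the intron before it and 6 bp of the intron after it. The even region at chr1:75357095-75357342 on exon 1 had a score of 5, with 121 even regions scoring higher, and covered codons 35 to 117 of 470. These 2 regions lay 2676 bp apart. Together the regions of both pools covered 25.0% of the 3028 bases of the spliced transcript and 0.632% of its intron bases. In Des the odd score on the last exon (45) was above that on exon 6 (19), while in Vim the last exon (28) was close to exon 6 (31).

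The odd pool thus held a region around exon 6 of both Vim and Des. Exon 6 was 221 bp long in both genes, and 171 of its bases (77.4%) were identical between Vim and Des, with a longest identical run of 15 bp. Exon 4, which is 162 bp in both, was identical at 78.4% of bases with a longest run of 18 bp, but carried an odd region in Vim and none in Des. Exons 2, 3, 5, 7 and 9, compared over their coding bases, were identical at 61.9% to 72.2%. Exon 6 of Gfap, also 221 bp, was identical to that of Vim at 75.1% of bases and carried no region.

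On exon 1, where the even pool had a region in both Vim and Des, a search of mm9 with the even region of Vim found 1 other place that was identical at 80% or more of bases over 100 bp or more, and this was Des exon 1. The match was 134 bp long without gaps, 114 of its bases (85.1%) were identical, and 88 of its bases in Des lay under the even region of that gene. In Vim the stretch also lay wholly within the odd region on exon 1, whose own alignment to Des was longer, 234 bp, and identical at 77.8%, under the limit of the search. The longest identical run between the coding parts of Vim and Des exon 1 was 17 bp. No word of 31 bases, and none of 21 bases, occurred more than once in mm9 within either of these even regions. The authors mapped reads uniquely. The share of reads that could map to either gene is not known from the lists, and its part in the result was not tested.

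Lmna (ENSMUSG00000028063.9, chr3:88285070-88313878, minus strand), which encodes lamin A and lamin C by alternative splicing, held 2 odd regions and 1 even region, with scores below those of Vim and Des in each pool. On exon 12, the odd region at chr3:88285280-88285533 had a score of 12, with 230 odd regions scoring higher. The even region at chr3:88285093-88285340 on the same exon had a score of 4, the lowest of the list, with 187 even regions scoring higher. Both lay wholly in the 3′UTR and shared 61 bp, with midpoints 190 bp apart, the widest offset among the members. Exon 12 is the last exon of the lamin A transcript and is not part of lamin C, and the regions on it touched an exon in 1 of the 7 annotated transcripts. The second odd region, at chr3:88306648-88306901 on exon 1, had a score of 6, the median of the odd list, and 825 odd regions scored higher. It held 232 coding bases, from codon 42 to codon 119 of 666, and ran 22 bp into the first intron of the transcript. The nearest even region was 21307 bp away. The regions of both pools covered 21.3% of the 3156 bases of the spliced transcript and 0.0858% of its 25653 intron bases.

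**Figure D2:**
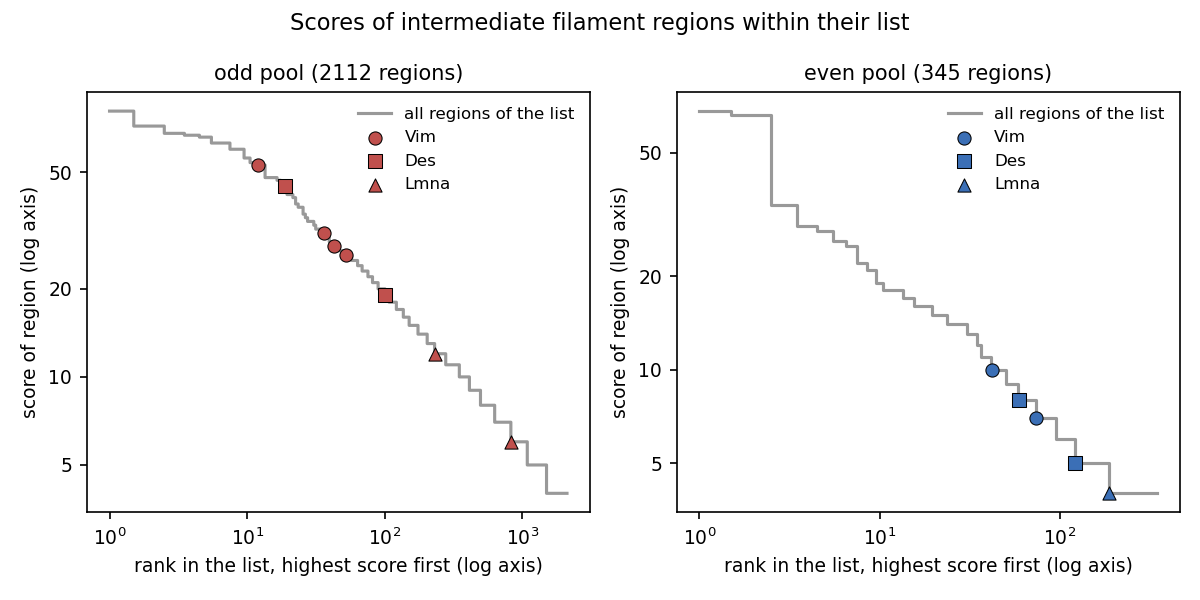
Score of each region (vertical log axis) against its rank in its list, highest score first (horizontal log axis), for the odd pool at left and the even pool at right, with all regions as a grey line and the regions of Vim (circles), Des (squares) and Lmna (triangles) marked. The 4 odd regions of Vim and the 2 of Des scored from 19 to 53, all above the 2 odd regions of Lmna (6 and 12).

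Over the 3 genes, odd scores ranged from 6 to 53 with a median of 27, against a median of 6 in the whole odd list. Even scores ranged from 4 to 10 with a median of 7, against 5 in the whole even list. All regions of the members touched an exon, whereas the lists include regions outside exons. The median score of list regions on exons alone was not computed. Counting genes by their highest score, 6 of the 1445 genes with an odd region were above Vim, 11 were above Des and 144 were above Lmna. In the even pool, 28 of 223 genes were above Vim, 36 above Des and 123 above Lmna. The order Vim, Des, Lmna was the same in both lists. The paper had named Vim as a top-ranked target, in part from PAM ChIRP-seq, so its rank here is not independent of that choice. In number of odd regions, 8 genes had more than Vim, and 80 had more than Des or Lmna. Per kb of annotated exon, Vim had 1.71 odd regions, Des 0.533 and Lmna 0.470. Without replicates it is not known how far these counts and ranks would move in another library.

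**Figure D3:**
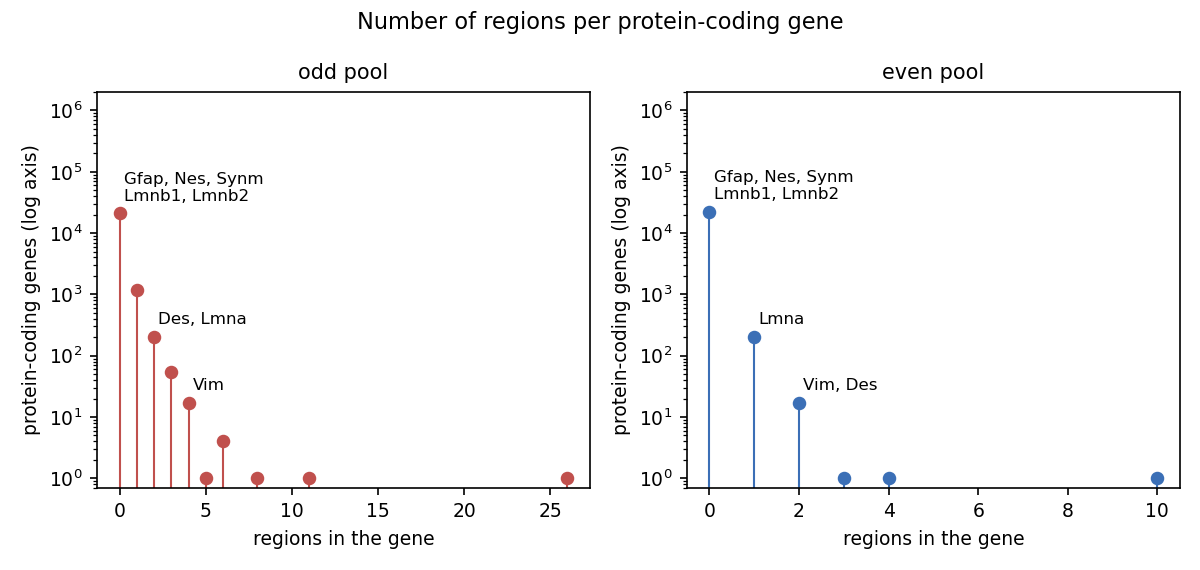
Number of protein-coding genes (vertical log axis) with each number of regions in the gene (horizontal axis), for the odd pool at left and the even pool at right, with the members written at their place. Vim, with 4 odd regions, was among the 25 genes with at least 4, and Vim and Des, with 2 even regions each, were among the 20 genes with at least 2.

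The 5 members without a region differed in how far away the nearest region lay. Lmnb2 (chr10:80363948-80380990, minus strand), 1 of the B-type lamin genes, was closest, with an odd region 1012 bp beyond its span, in the neighbouring gene Timm13 (score 6). Its nearest even region was 262 kb away, in Eef2. Nes (chr3:87775000-87784373, plus strand) had the nearest odd region 55.0 kb away, in Hdgf (score 12), and the nearest even region was that of Lmna itself, 501 kb away on the same chromosome. For Gfap (chr11:102748650-102762226, minus strand) the nearest odd region was 94.0 kb away and the nearest even region 1.72 Mb away. For Synm (chr7:74875047-74904628, minus strand) these distances were 1.63 Mb and 21.2 Mb, and for Lmnb1, on chromosome 18, they were 3.29 Mb and 5.56 Mb. Annotated exons summed to 6416 bp in Nes and 7931 bp in Synm, against 2335 bp in Vim. Of the 31-base words of their exons, 87.6% in Gfap and 97.3% to 99.9% in the other 4 genes occurred once in mm9, against 99.4% to 99.8% in Vim, Des and Lmna. Since depth is unknown, a gene without a region is one without a listed region, and no statement on weaker signal there can be made.

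All 13 regions touched an exon. The rule placed them in protein-coding genes, and among all regions in the span of a protein-coding gene 89.0% of odd and 75.6% of even regions touched an exon of it. Over the whole lists, regions outside genes included, the shares were 80.2% and 58.8%. Of the 2032 bases in the odd regions of the members, 55.7% were coding, 34.0% were 3′UTR and 10.3% were intron, and none were 5′UTR. Of the 1240 bases in their even regions, 42.7% were coding and 57.3% were 3′UTR, and none were intron. For reference, exons of the transcripts used here made up 24.6% of the span of Vim, 36.7% of Des and 11.0% of Lmna. The highest odd score lay in coding sequence in Vim and in the 3′UTR in Des and Lmna.

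By exon order, 3 of the 8 odd regions were on the last exon and 2 were on the first. Among all odd regions on exons of genes with at least 3 exons, 69.1% touched the last exon and 4.53% the first. In the even pool, 3 of the 5 regions were on the last exon and 2 on the first, against 67.3% and 7.27% in the list. The members thus had regions on first exons at 2 of 8 and 2 of 5, above the list's shares, but these are counts of a few regions in 3 genes, were not tested and share their genes between pools. Exon 1 is 1043 bp long in Vim, 664 bp in Des and 588 bp in Lmna, and the list's shares were not matched for exon length. The 3 odd regions on internal exons (Vim exons 4 and 6 and Des exon 6) contained their exon whole. This was the case for 80.2% of the 257 internal exons in the odd list that were touched by a region and no longer than it, so the members did not stand apart in this.

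**Figure D4:**
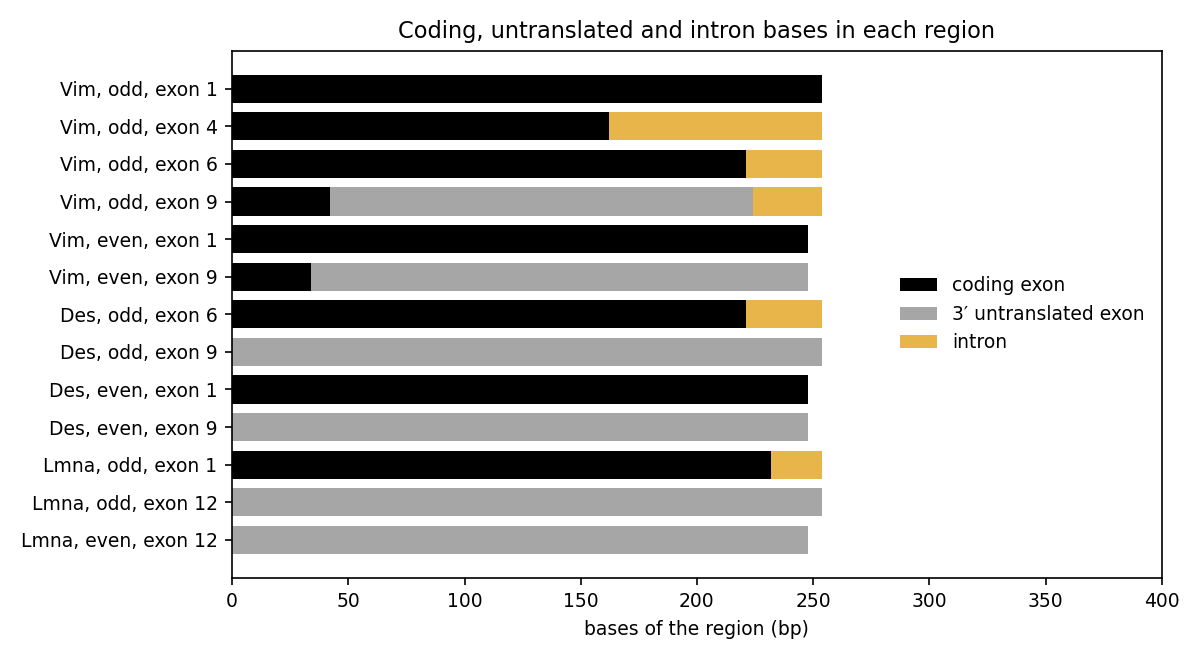
Bases of each of the 13 regions (horizontal axis, bp) that were coding exon (black), 3′ untranslated exon (grey) or intron (yellow) in the transcript with the longest coding sequence. The 5 even regions held no intron bases, and 5 of the 8 odd regions held from 22 to 92 bp of intron.

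Of the 13 regions, 8 formed the 4 shared loci of the members, and the other 5 were seen in 1 pool. Over the whole lists, 147 of the 2112 odd and 147 of the 345 even regions took part in a shared locus. The odd scores at the members' shared loci were 53 and 28 in Vim, 45 in Des and 12 in Lmna, with even scores of 10, 7, 8 and 4. Among the 147 shared loci of both lists the median odd score was 14 and the median even score 7, and the midpoints were a median of 47 bp apart. The 4 odd regions without an even partner scored 26 and 31 in Vim, 19 in Des and 6 in Lmna. Most odd regions of the list had no even partner either. The odd region on Vim exon 9 (28), which had a partner, scored between those on exons 4 and 6, which had none. The even region on Des exon 1 (score 5) had no odd partner.

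The PAM probes are given because the regions were searched for their letters. The oligonucleotide table of the study lists 6 probes of 20 nt, each of which matched the spliced transcript of Gm12603 once as its reverse complement.
PAM probe 1: gccagaaagaatggatgact
PAM probe 2: gcattttcagtgggatcaca
PAM probe 3: acctgccatctgctatcaaa
PAM probe 4: tcttcacaaaccctcatgat
PAM probe 5: acaagtacttcagctccatg
PAM probe 6: gttctgatatgtaagctcct

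No region of the members held more than 10 consecutive bases of a probe on either strand, and the longest match ranged from 7 to 10 nt, against a median of 7 nt in the odd list and 8 nt in the even list and a range of 4 to 13 nt in both. The match of 10 nt was between probe 5 and the odd region on Lmna exon 1. Matches of at least this length were found in 95 odd regions (4.50%). Both regions on Vim exon 1 had a longest match of 9 nt, to the same probe, and 13.6% of odd and 21.7% of even regions had a match at least as long to some probe. These matches describe letters only.

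The members' regions had a higher median GC content than their lists, 56.9% against 49.6% in the odd pool and 58.1% against 48.0% in the even pool. All 13 touched an exon, as did only 80.2% of odd and 58.8% of even list regions. GC content over list regions on exons alone was not computed. They ranged from 38.3%, on Vim exon 9 in the even pool, to 66.1%, on Des exon 1. All 13 regions had a median copy number of 1 for their 31-base words in mm9, and only the odd region on Vim exon 6 held words found at 2 places, with 96.0% of its words unique. In the lists, regions outside genes included, 16.5% of odd and 19.4% of even regions had a median of 2 copies or more. The share among regions in protein-coding genes alone was not computed. At the looser limit of 80% identity over 100 bp, the odd region on Vim exon 6 matched 4 other places, 3 of them in genes named as keratins, and that on Des exon 6 matched 13, of which 11 were in such genes. No region of either list was found at any of these places. Apart from these and the match of Vim exon 1 to Des described above, the search listed no place within its limits.

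The genes most like Vim were chosen as those with at least 4 odd and at least 2 even regions, and there were 5, with likeness measured only by these counts in 2 libraries. Fn1, the gene of fibronectin, had 26 odd and 10 even regions. Col3a1, which encodes a fibrillar collagen, had 8 and 4, with a highest odd score of 53, equal to that of Vim. Hsp90ab1, which encodes a cytosolic chaperone, had 4 and 2, with odd scores from 22 to 32 close to the lower 3 of Vim. Scd2, which encodes a fatty acid desaturase, and Itga7, the gene of a laminin-binding integrin of muscle, also had 4 and 2, with highest odd scores of 26 and 10. Relative to exon length, Vim with 1.71 odd regions per kb was above Hsp90ab1 (1.33), Col3a1 (0.953), Itga7 (0.939) and Scd2 (0.734) and below Fn1 (3.12). Vim, Hsp90ab1, Itga7 and Scd2 each had 4 odd regions, so the order among them is set by exon length alone (2335, 2999, 4258 and 5453 bp).

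Of 90 other filament genes and genes that work with intermediate filaments, 10 (11.1%) had an odd region, 2 (2.22%) had an even region and 1 (1.11%) had a shared locus, against 6.46%, 0.996% and 0.469% of all protein-coding genes. Without the 46 keratin genes, 9 of 44 (20.5%) had an odd region. The list was chosen with earlier results known, and these shares were not tested. The gene with a shared locus was Macf1, which encodes a cytolinker between actin and microtubules, with odd scores of 9 and 8 and an even score of 4, all on its last exon. Among 14 genes of nuclear envelope partners of the lamins, 5 (35.7%, against 6.46% of all protein-coding genes) had an odd region and none had an even region. They were Syne3, annotated as 4831426I19Rik and encoding a nesprin (score 8, in an intron), Tmpo, the gene of LAP2 proteins that bind lamins (7), Banf1, whose product bridges chromatin and LEM proteins (5), Sun1, whose product spans the inner nuclear membrane (4), and Zmpste24, the protease that matures lamin A (4). The region in Tmpo lay in an intron of the transcript used for exon numbers but touched an exon of another transcript. Among 9 partners and chaperones of desmin, 2 (22.2%) had an odd region. Flnc, the muscle filamin, had a score of 10 on its last exon and Cryab, a small heat shock protein that binds desmin, had a score of 8 on its first exon. Of 8 other intermediate filament genes outside the keratins, Sync, which encodes the desmin-binding syncoilin, had a score of 6, and of 46 keratin genes Krt80 had an odd region and Krt75 an even region, both with the lowest score of 4. Like that in Tmpo, the region in Krt80 touched an exon only in a transcript other than the one used for exon numbers. None of 7 genes of kinases that act on intermediate filaments had a region. All odd scores in these 10 genes, at most 10, were below the 6 odd scores of Vim and Des, and the median odd score of the list was 6.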

How the data were processed

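The authors used Bowtie2 for unique mapping to mm9 and MACS2 for peak calling (versions not given in the sources used here). The deposited list of each pool gives regions of 1 width with a score in the last column. Neither the meaning of this score nor its scale in each list is stated, so scores were compared only within a list, by rank, range and median. A limit of at least 5, used as an alternative setting in both lists, need not mean the same in each. Starts were read as 0-based and printed as 1-based. Gene spans and exons came from GENCODE M1. Exon numbers and coding parts came from the protein-coding transcript with the longest coding sequence. A shared locus is a stretch of at least 1 bp under a region of each pool.

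Members and gene lists were chosen with earlier results of these data known, so no test was made on them, and shares of all 22380 protein-coding genes or of the whole list are given for reference. All 8 members were named. Of the 91 related genes listed, 90 were found, and those with a region in both pools or otherwise the 10 with the highest odd score were named. A keratin with an even region only, Krt75, was named after its value was seen. Genes like Vim were those with at least as many regions in each pool, up to 5, ordered by their number of regions.

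The sequences of some regions are not reported here. Words of 31 bases were counted in mm9, similar places were searched with blastn, and probes were compared on both strands. The overlap step was checked on simulated data, where 200 of 200 planted regions were recovered with gene and exon. Each planted region was centred on a chosen exon, so this checks the code and not the assignment of the deposited regions. Python 3.11.15, NumPy 2.4.6, SciPy 1.17.1, matplotlib 3.10.9, pysam 0.24.0, numba 0.67.0, samtools 1.23.1 and BLAST 2.17.0 were used.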

Additional observations from a re-analysis of the deposited data

How the results depend on the processing

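The counts of regions, genes and shared loci in the members stayed within 1.5 times of the reported ones under all alternatives run. With spans extended by 20000 bp, Lmnb2 joined through the odd region in Timm13, which gave 9 odd regions in 4 members. With a score of at least 5, or at or above the list median, Lmna lost its even region and its shared locus, which left 4 even regions in 2 members and 3 shared loci. All regions of the members stayed on exons under each rule, and the median copy number of their words stayed at 1 with words of 21 bases. The shares over the whole lists moved more. Genes with an odd region were 6.95% and 13.1% with spans extended by 1000 and 20000 bp, and 4.64% and 3.29% with a score of at least 5 or at or above the median. Genes with an even region were 2.12% with spans extended by 20000 bp and 0.550% with either score limit, which coincide in that list. Odd regions on exons were 74.5% with protein-coding transcripts only, 86.1% with a score of at least 5 and 87.7% at or above the median, and even regions 53.0%, 74.9% and 74.9%. These shifts in the number of genes follow from wider spans or fewer regions, and the cause of the higher exon share at higher scores was not tested. No paired analysis was possible because only 1 library exists per pool. The unknown depth, the unstated score and the lack of replicates and of an input comparison limit every count given here.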
